A study of Mus musculus with 6 samples.

Results

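The probe described here reads Lhfp, a gene of the LHFPL family of tetraspan membrane proteins, in mouse eyes with laser-induced choroidal neovascularization (CNV) and in eyes without laser. It is the probe A_51_P505868, whose target accession in the scanner files is NM_175386, and it is 1 of 50 mRNA probes on a circRNA array with 14330 non-control probes in all. All spots of that name were taken, which gave 10 spots on each array and 60 over the 6 arrays. Lhfp was selected on its measured log2 difference between CNV and control, so that difference is described here without a test. A RefSeq table of the GRCm38.p6 assembly names the accession Lhfp, with Lhfpl6 as another symbol, and lists the protein-coding genes Cog6 and Nhlrc3 on either side of it. The accession settled the match, since the table also gives Lhfp as a synonym of the related gene Lhfpl1.

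The tissue was the RPE-choroid-sclera complex of male mice, where RPE is the retinal pigment epithelium. The CNV group of 3 samples came from eyes enucleated 7 days after laser burns set around the optic disc, 25 in each eye, from a diode laser of 532 nm and 100 mW with a spot size of 50 µm and a pulse of 0.1 s. The control group of 3 samples came from mice of matched age that had no laser. The labels used here give no strain, genotype or age, and do not say whether a sample is 1 eye, 1 animal or a pool, so the spread between samples may in part be technical. In both groups total RNA was digested with RNase R, an exonuclease that removes linear RNA, then amplified from random primers and labelled with the green dye Cy3.

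Lhfp was named for its part in a gene fusion found in human lipoma. Its protein crosses the membrane several times, like the claudins and the peripheral myelin protein Pmp22. Among its relatives, Lhfpl5 belongs to the mechanotransduction complex of inner ear hair cells, and Lhfpl4 accompanies GABA-A receptors at inhibitory synapses. In the laser model, burns break Bruch's membrane beneath the RPE, and vessels then grow from the choroid into the space under the retina, with macrophages, fibroblasts and other cells at the lesion. The list for the LHFPL family held 7 symbols, of which Lhfpl6 is another symbol of Lhfp itself. Lhfp was the 1 symbol with a named probe, and of 8 wider relatives such as claudins and Pmp22 none had one.

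The Lhfp signal was far higher on CNV 2 and CNV 3 than on any control array, and CNV 1 stood close to the controls. Values are log2 of the processed signal, the background-subtracted brightness of a spot, minus the 75th percentile of that array. In the controls the Lhfp level was -1.45 for array 1, -1.04 for array 2 and -1.19 for array 3. It was -0.67 on CNV 1, 1.62 on CNV 2 and 1.93 on CNV 3. From lowest to highest the arrays ran control 1, control 3, control 2, CNV 1, CNV 2 and CNV 3, so the groups did not overlap on this scale. Every CNV value also lay above every control value in 4 of the 46 mRNA probes kept (clear of local background by the software call on 3 or more arrays), Lhfp included, or 8.7%, and in 948 of 13357 circRNA probes, or 7.1%. The choice of the probe used this contrast, so nothing is read from these shares.

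In controls the Lhfp level averaged -1.22 ± 0.21 (SD, n = 3), and the CNV arrays averaged 0.96 ± 1.42 (SD, n = 3). The log2 difference was 2.18 ± 0.83 (SE from the SDs of the groups, n = 3 per group), or 4.55-fold. That mean hides a split within CNV. CNV 1 exceeded the control mean by 0.55 log2 units, or 1.47-fold, while the lower of CNV 2 and CNV 3 exceeded the highest control by 2.66, or 6.31-fold. The mean of CNV 2 and CNV 3 exceeded CNV 1 by 2.45 log2 units, or 5.46-fold, and CNV 2 and CNV 3 differed from each other by 0.31. Without CNV 1 the difference between the groups was 3.00. In whole tissue, a change in the number of cells that make an RNA and a change in the RNA per cell cannot be told apart. The probe reads labelled RNA that carries its target, whether linear or circular, and these were not separated.

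**Figure D1:**
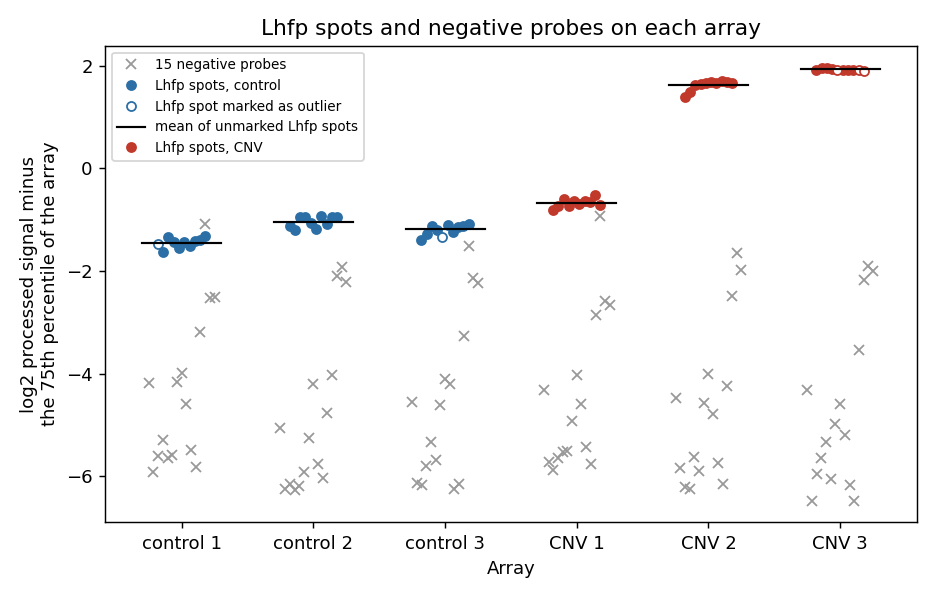
Each of the 10 Lhfp spots on the 6 arrays, as log2 processed signal minus the 75th percentile of the array (vertical axis), with controls in blue, CNV in red, spots that the scanner software marked as outliers open and the mean of unmarked spots as a line. Grey crosses are the 15 negative probes, of which 1 lies above the Lhfp mean on control 1. The means of CNV 2 and CNV 3, at 1.62 and 1.93, stand apart from CNV 1 at -0.67 and from the 3 controls at -1.45 to -1.04.

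The 10 spots of an array are repeats of 1 RNA sample and measure the precision of the array, not the spread between mice. On control 1 the processed signal of the spots ran from 25.1 to 30.9, with a median of 28.7 intensity units. It ran from 46.9 to 56.7 on control 2 (median 53.8) and from 39.2 to 48.8 on control 3 (median 45.9). CNV 1 lay in the same range, with spots from 44.3 to 54.1 and a median of 48.8. The spots of CNV 2 ran from 321 to 401 (median 387) and those of CNV 3 from 484 to 504 (median 490). No spot of CNV 2 or CNV 3 came near any spot of the other 4 arrays. The spots of CNV 2 also lay wholly below those of CNV 3.

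Spots agreed closely within each array. The coefficient of variation over the 10 spots was 6.29%, 7.35% and 7.22% on controls 1 to 3, 5.74% on CNV 1, 6.71% on CNV 2 and 1.36% on CNV 3. The highest spot exceeded the lowest by 21.1% to 24.9% on the first 5 of these arrays and by 4.14% on CNV 3. CNV 3 thus had the tightest Lhfp spots of the 6 arrays, and no other of the 46 mRNA probes had a lower coefficient of variation there. The median over those probes on CNV 3 was 9.31%. In the raw median signal, which has no background subtracted and no correction for position on the array, the Lhfp coefficients ran from 3.05% on CNV 2 to 6.25% on CNV 1, and CNV 3 was at 4.48%. Over all 10 spots, marked outliers included, the small value on CNV 3 was thus seen in the processed signal and not in the raw signal. The raw value on CNV 3 includes a spot of 542 units that the software marked as an outlier. The unmarked spots there ran from 468.5 to 494 in the raw signal. Whether CNV 3 was also the tightest array in the raw signal without marked spots was not tested.

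The SD of the spots within an array, pooled over the 6 arrays, was 0.09 log2 units. The SD between the 3 CNV samples was 15.7 times as large and that between the controls 2.29 times as large. The distance of CNV 1 from CNV 2 and CNV 3 was thus far above the noise of spots. With 1 array per sample, a difference between eyes and a difference in preparation cannot be told apart.

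The scanner software marked none of the 60 spots as saturated or as non-uniform, and all 60 as well above background. It marked 5 as outliers among repeats of the probe, of which 1 lay on control 1, 1 on control 3 and 3 on CNV 3, and these were left out of the means. With them kept, the log2 difference was 2.19. The error that the software gives for a single spot was 10.2% to 11.1% of its signal on the controls and CNV 1, and slightly lower on CNV 2 and CNV 3. The raw median signal was 46 to 55 units on control 1 and 64 to 77 on CNV 1, against local backgrounds of 11 to 15 and 12 to 17. The median ratio of raw signal to local background was 3.62, 5.34 and 4.73 on controls 1 to 3, 5.05 on CNV 1, 29.8 on CNV 2 and 35.6 on CNV 3. Control and CNV 1 spots were thus dim and only several times their surroundings.

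Position on the array had a small and partly shared trace in the spots. The correlation of the processed signal with the grid row, over the 10 spots of an array, was 0.54, 0.54 and 0.70 on controls 1 to 3, 0.58 on CNV 1, 0.83 on CNV 2 and -0.42 on CNV 3. The spots were at the same 10 places on every array, and 5 arrays were brighter towards higher rows while CNV 3 was not. These are descriptions over repeats of 1 sample each. The trace is small beside the distance from CNV 1 to CNV 2.

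The 15 negative probes, named MM9NEGATIVE on the array and taken here as probes without a mouse target, gave the floor of the measurement. Their median level was -4.60, -5.26 and -4.62 for the 3 controls in order, and -4.92, -4.79 and -5.19 for the 3 CNV arrays. Lhfp exceeded that median by 3.60 ± 0.56 log2 units in controls (SD, n = 3), or 8.91-fold to 18.7-fold over the 3 arrays. It exceeded it 19.0-fold on CNV 1, 84.8-fold on CNV 2 and 139-fold on CNV 3. The size of this margin depends on how background is handled and on any offset added. In controls it was 0.72 log2 units with normexp and 0.74 with normexp followed by quantile normalization. Both add 50 units to every spot, negative probes included, which by itself narrows such a margin. In the raw signal, with no background subtracted, it was 1.28. By the median, Lhfp was above the negative probes on all 6 arrays in the processed signal.

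The brightest negative probes gave a narrower margin. On control 1 the probe MM9NEGATIVE015 had an intensity of 36.7, above the 28.4 of Lhfp, so that Lhfp was 0.77 times as bright as the brightest negative probe there. On the other arrays no negative probe exceeded Lhfp. Lhfp was 1.85-fold and 1.24-fold above the brightest on controls 2 and 3, 1.19-fold above it on CNV 1, and 9.70-fold and 14.3-fold above it on CNV 2 and CNV 3. The same probe MM9NEGATIVE015 was brightest on CNV 1, at 40.9, and on control 3, at 36.4. Next after the brightest, a negative probe was exceeded by Lhfp 1.92-fold to 2.08-fold on the controls and 3.79-fold on CNV 1. The control level of Lhfp, and that of CNV 1, is therefore uncertain, since 1 or more probes without a target reached a similar brightness. The signal of CNV 2 and CNV 3 was above every negative probe by a wide margin.

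The negative probes did not separate the groups, though some shared part of the Lhfp pattern. Of the 4 that met the same background threshold, none had all CNV values above the controls. The probe MM9NEGATIVE015 had a log2 difference between the groups of -0.30, and its mean on CNV 2 and CNV 3 was 1.40 below its value on CNV 1. MM9NEGATIVE016 and MM9NEGATIVE017 had differences of 0.14 and 0.10, and their means on CNV 2 and CNV 3 were 0.81 and 0.67 above CNV 1. On both probes CNV 2 and CNV 3 lay above every control, as for Lhfp, while CNV 1 lay below every control. Why they share that part of the pattern was not tested.

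The place of CNV 1 above the controls depended on the scaling between arrays. Averaged over unmarked spots on the log scale, the Lhfp intensity was 28.4, 52.6 and 45.2 on controls 1 to 3, 48.9 on CNV 1, 377 on CNV 2 and 492 on CNV 3. Before scaling, CNV 1 was thus below control 2. Of the 100 pairings of a CNV 1 spot with a control 2 spot, the CNV 1 spot was brighter in 22. Against control 3 it was brighter in 83 of 100, and against control 1 in all 100. After scaling, every CNV 1 spot lay above every control spot.

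The 75th percentile that set the scale was 77.2 intensity units for control 1 and 77.8 for CNV 1. It was 108 and 103 for controls 2 and 3, and 123 and 129 for CNV 2 and 3. Control 1 and CNV 1 were therefore the arrays of lowest signal. Set against control 1, the array of nearly equal percentile, CNV 1 was higher by 0.77 log2 units. The corresponding differences within the numbered pairs 2 and 3 were 2.66 and 3.12. With the replicate number as a block, the mean of the 3 differences within pairs was 2.18 with an SE of 0.72, against 0.83 without the block. The labels state no pairing. Since every CNV value lay above every control value on this scale, any pairing would put each CNV sample above its control. By number, the amount was smallest in pair 1.

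**Figure D2:**
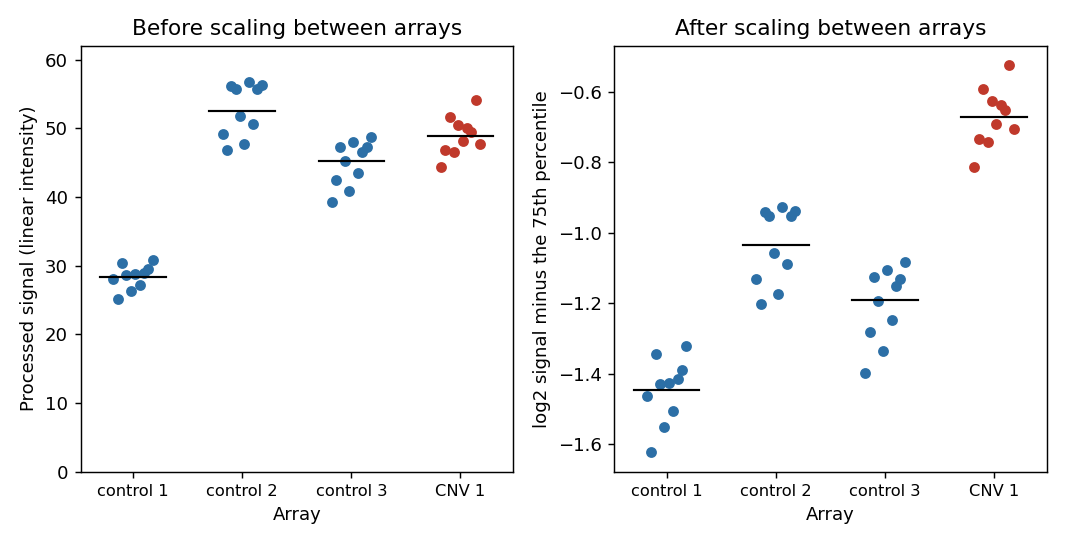
The 10 Lhfp spots of the 3 controls (blue) and CNV 1 (red), as processed signal before scaling (left, linear axis from 0) and as log2 signal minus the 75th percentile of the array (right), with the mean of unmarked spots as a line. Before scaling the CNV 1 mean of 48.9 lies below the 52.6 of control 2, and after scaling every CNV 1 spot lies above the controls.

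The size of the difference kept its direction under each of 11 other ways of processing all 6 arrays. It ran from 1.46, with normexp followed by quantile normalization, to 2.36 with no scaling between arrays. With each array scaled on the other 45 mRNA probes in place of all probes, it was 1.96. The lowest CNV value, CNV 1, stayed above the highest control in 10 of the 11, by 0.18 to 0.44 log2 units, and fell below it by 0.11 with no scaling. Background correction by normexp, which adds an offset of 50 units to each spot, left smaller distances between dim spots. It gave a level of -0.39 on CNV 1 and of -0.71, -0.62 and -0.69 on controls 1 to 3. The distance of CNV 2 and CNV 3 from CNV 1 was 1.77 there and 3.14 with no scaling.

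**Figure D3:**
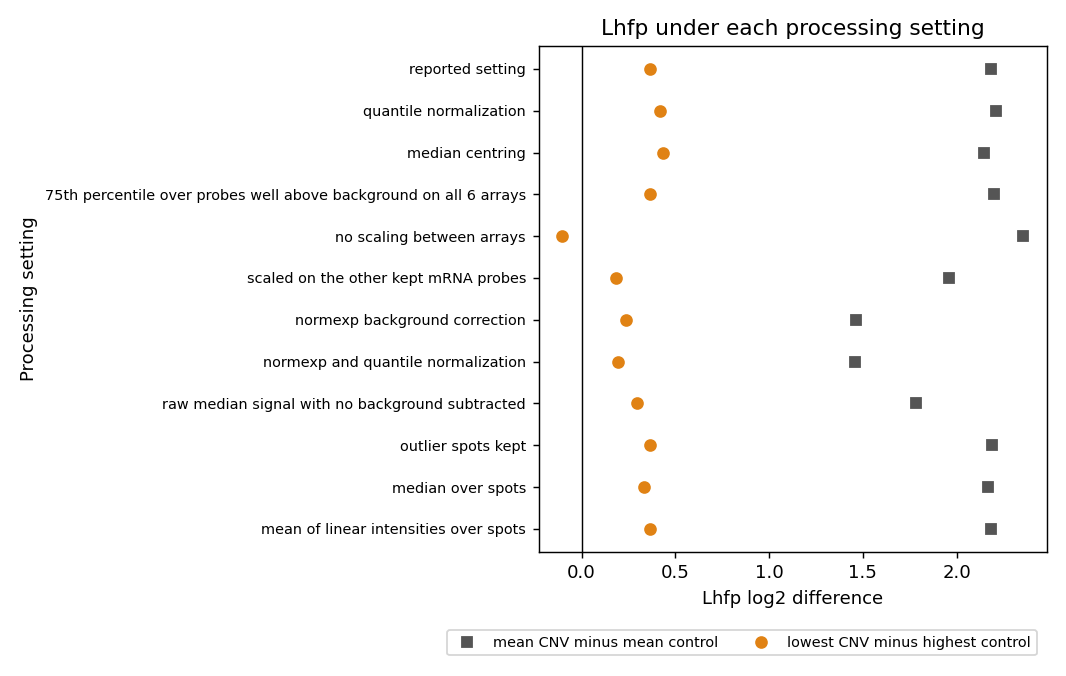
Lhfp under the reported setting and 11 other processing settings (rows), as the mean CNV minus mean control (grey squares) and the lowest CNV minus the highest control (orange circles), both in log2 units. The squares lie between 1.46 and 2.36, and 1 circle, with no scaling between arrays, lies below 0 at -0.11.

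The first number of the barcode in each file header is read here as the slide row. On that reading the groups were not spread evenly over the rows. All 3 controls and CNV 2 lay in slide row 1, and CNV 1 and CNV 3 in slide row 2. Whether the arrays shared 1 slide was not established. The lowest and the highest CNV value thus came from the same row. Within row 1, CNV 2 was above the mean of the controls by 2.84 log2 units. Row 2 holds no control, and with 1 CNV array the value in row 1 has no replicate.

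Across the array, the Lhfp difference was the largest of all probes kept. The other 45 mRNA probes had log2 differences from -0.32 to 1.16, with a median of 0.14. The difference was above 0 for 40 of these 45, and for 7638 of the 13357 circRNA probes. Why most mRNA probes were higher in CNV on this scale was not tested. The 13357 circRNA probes had differences from -1.74 to 1.70, with a median of 0.05, and none reached the 2.18 of Lhfp. The distance of CNV 2 and CNV 3 from CNV 1 was less unusual. Among the other mRNA probes it reached 1.58 at most, but 12 circRNA probes had a distance of at least the 2.45 of Lhfp. Since no circRNA probe had a difference between the groups as large as that of Lhfp, none of those 12 did. These ranks describe 6 arrays, and since Lhfp was picked for its difference they carry no test.

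**Figure D4:**
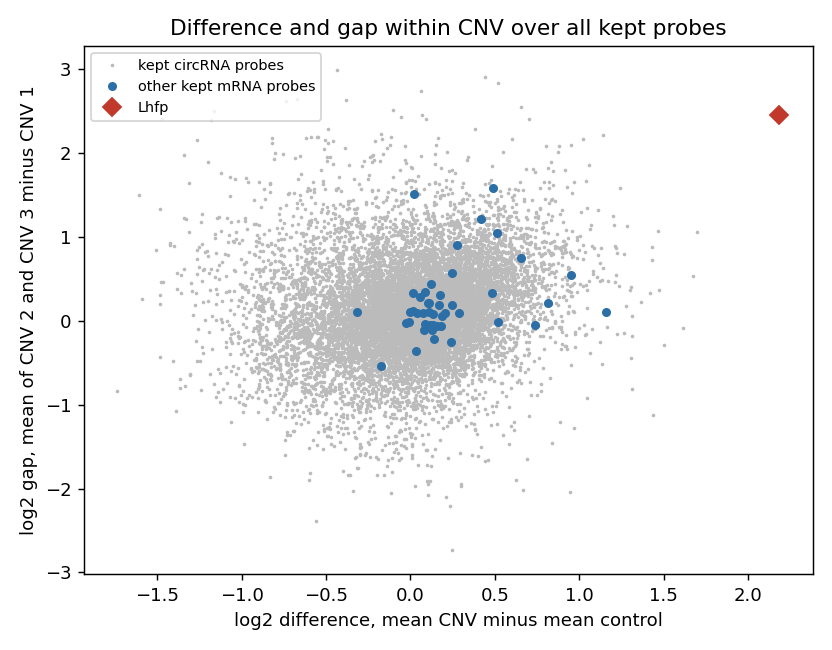
Every kept probe by its log2 difference between CNV and control (horizontal axis) and by how far the mean of CNV 2 and CNV 3 lies above CNV 1 (vertical axis, log2), with 13357 circRNA probes in grey, 45 other mRNA probes in blue and Lhfp in red. Lhfp stands alone at 2.18 and 2.45, where the largest difference of any other probe is 1.70.

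Among the kept mRNA probes with a gene name, those most like Lhfp in their pattern over the 6 arrays were Cep41, Chgb and Tyr. Likeness was the Pearson correlation of normalized log2 signal with that of Lhfp over the 6 arrays, which share their labelling and scaling, and it is given as a description. Cep41, a centrosomal protein, had a correlation of 0.89, and its levels were -3.70, -3.71 and -3.34 in the controls, then -3.32, -3.01 and -2.98 in CNV 1, 2 and 3. CNV 1 lay just above the highest control there, by 0.02, and CNV 2 and CNV 3 lay together above it. The Cep41 probe passed the background threshold on all 6 arrays. It was nonetheless dimmer on each array than the negative probes MM9NEGATIVE015, MM9NEGATIVE016 and MM9NEGATIVE017. Chgb, which encodes the secretory granule protein chromogranin B, had a correlation of 0.85. Its levels were -2.31, -2.60 and -2.39 in the controls and -2.56 on CNV 1, which lay among the controls. CNV 2 and CNV 3 were nearly equal to each other and above all of these. The Chgb probe also passed the background threshold on all 6 arrays, but on each array 1 or more negative probes were brighter. On CNV 2 and CNV 3 these were MM9NEGATIVE016 and MM9NEGATIVE017. Tyr, the tyrosinase of melanin synthesis, had a correlation of 0.81, and its probe passed the background threshold on 3 of the 6 arrays. A probe without a gene name, A_51_P425205, ranked between Cep41 and Chgb with a correlation of 0.87, and it is given here after its values were seen. It was at -4.45, -4.13 and -4.26 in the controls, -4.67 on CNV 1, -3.72 on CNV 2 and -3.20 on CNV 3, so its CNV 1 value lay below all controls. It too passed the background threshold on 3 of the 6 arrays.

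These patterns were smaller in size than that of Lhfp and moved with the processing. The mean of CNV 2 and CNV 3 exceeded CNV 1 by 0.33 for Cep41, 0.57 for Chgb, 0.74 for Tyr and 1.21 for A_51_P425205, against 2.45 for Lhfp. Over the 11 other settings the correlation ran from -0.53 to 0.94 for Cep41, from -0.03 to 0.92 for Chgb and from -0.46 to 0.94 for Tyr. Ranked among named probes alone, Cep41 and Tyr were among the 3 closest in 7 of the 11 settings each and Chgb in 6. The group difference of Cep41 was above 0 in 10 of the 11 settings, as was that of Tyr, and that of Chgb in all 11. The least like of the named probes was Rps4l, a ribosomal protein gene copy, with a correlation of -0.56 and a group difference of -0.32. Over the 11 other settings its correlation ran from -0.89 to 0.46 and its group difference from -0.54 to -0.06. With no scaling Hspb7 was the least like instead, and with scaling on the other mRNA probes it was Gsdmd.

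**Figure D5:**
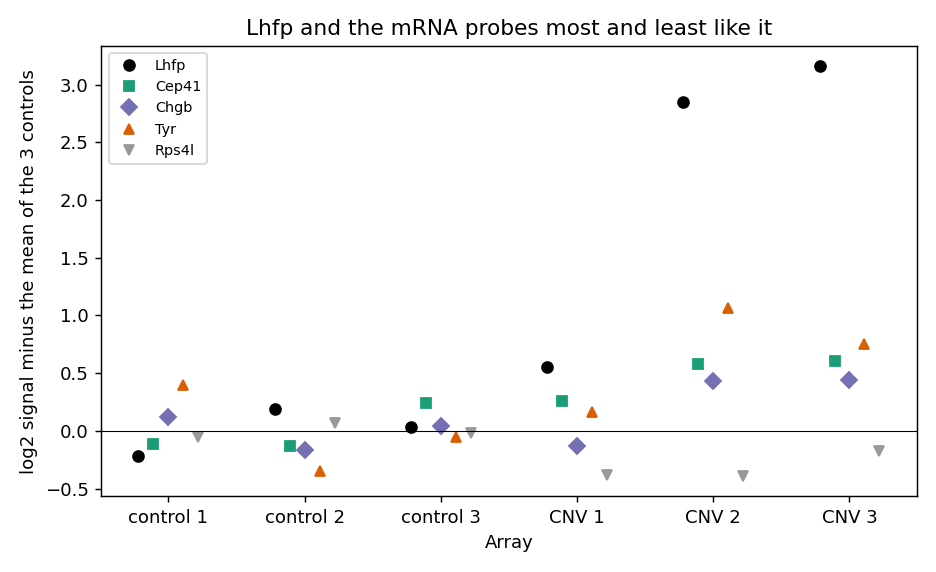
Level of Lhfp, of the 3 mRNA probes with a gene name and the highest correlation to it, and of the named probe with the lowest, on each array, as log2 signal minus the mean of the 3 controls for that probe. Lhfp rises far above the others on CNV 2 and CNV 3, and the other 4 probes move far less.

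Among circRNA probes the closest in pattern were ASCRP4007094, with a correlation of 0.99, and ASCRP4013772, also at 0.99. For ASCRP4007094 the controls were at -0.38, -0.27 and -0.29, CNV 1 at -0.26, CNV 2 at 0.13 and CNV 3 at 0.20. Its order of arrays was that of Lhfp, but its group difference was 0.33. For ASCRP4013772 the controls were at 4.56, 4.84 and 4.70, CNV 1 at 4.80, CNV 2 at 5.53 and CNV 3 at 5.66, with a group difference of 0.63. On it CNV 1 lay 0.04 below the highest control. In all, 217 of the 13357 circRNA probes, or 1.62%, had a correlation with Lhfp above 0.9. Over 6 arrays and so many probes such a correlation is no finding, and the host genes of these probes were not analysed here.

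The cell types of the samples could be checked only in small part. Of 45 marker genes listed for 9 cell types of this tissue and its neighbours, 3 had a probe. These were Tyr, listed for melanocytes, Apoe, listed for Müller glia and astrocytes, and Mbp, listed for Schwann cells. A single listed gene does not show which cell type made its RNA, and other cells of the tissue may make Apoe. No marker listed for RPE, endothelium, fibroblasts, mural cells, macrophages or photoreceptors had a probe. The mean of CNV 2 and CNV 3 exceeded CNV 1 by 0.10 for Apoe, which encodes a lipid-carrying protein, and by 0.54 for Mbp, which encodes a myelin protein. For Mbp that came from CNV 2 alone, at -1.85, with CNV 1 at -3.36 and CNV 3 at -3.79. All 3 markers had a higher mean in CNV on the reported scale, by 1.16 log2 units for Apoe, 0.95 for Mbp and 0.66 for Tyr. The Mbp probe passed the background threshold on 4 of the 6 arrays and the Tyr probe on 3. In the controls both were dimmer than the negative probes MM9NEGATIVE015, MM9NEGATIVE016 and MM9NEGATIVE017. Every CNV value of Apoe lay above every control value, and those of Mbp and Tyr overlapped the controls. The difference of Tyr was -0.01 with normexp and above 0 in the other 10 settings. Their part in the Lhfp signal was not tested.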

How the data were processed

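The 6 deposited scanner tables give each spot's brightness as a linear intensity, and the file headers name Agilent Feature Extraction 11.0.1.1, which subtracts background within each array. The authors' deposited value table holds log2 values of circRNA probes only, so it gave no Lhfp value. The spot signal column planned for normexp was not in the tables, and the median signal was used in its place, a choice made after seeing the data.

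Spots that the software marked (non-uniform, or outlying among repeats) were dropped, log2 values were averaged over the spots of a probe, and the 75th percentile over all non-control probes was subtracted. A probe was kept when at least 50% of its spots were well above background on at least 3 arrays, which kept 46 of 50 mRNA probes, 13357 of 14236 circRNA probes and 4 of 15 negative probes. mRNA probes were named by accession through RefSeq, which named 44 of the 50. The probe, lists and alternatives were chosen with earlier results of these data known. Besides Lhfp and the negative probes, the named probes were the 3 mRNA probes with a gene name and the 2 circRNA probes of highest correlation with Lhfp, and the mRNA probe with a gene name of lowest. Marker genes were added from fixed lists. No test was run, since the probe was picked for its difference. With 3 arrays per group, their number limits the precision.

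Deviations from the group means over circRNA probes correlated at 0.41, 0.18 and 0.17 within the numbered pairs 1 to 3. All exceed 0.1, which was the threshold for pairing by number, but control 2 and CNV 3 correlated more, at 0.32, and the labels state no pairing. The reported difference is unpaired, and the value with the replicate number as a block stands beside it. Calculations used Python 3.11.15 and limma 3.58.1 in R 4.3.3, and were tested on simulated data.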

Additional observations from a re-analysis of the deposited data

How the results depend on the processing

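The separation of the lowest CNV from the highest control, a value added after seeing the data, was 0.36 log2 units. It was -0.11 with no scaling between arrays, and 2.66 both without CNV 1 and within slide row 1, where CNV 2 is the only CNV array. Leaving out 1 array at a time gave 0.36 to 2.66. The Lhfp difference ran from 1.70 without CNV 3 to 3.00 without CNV 1, and was 2.18 with the replicate block. The control level above the median negative probe, 3.60, was 0.72 with normexp, 0.74 with normexp and quantile normalization, and 1.28 in the raw signal. Leaving out 1 control gave 3.29 to 3.83. The median coefficient of variation of Lhfp spots, 6.67% over unmarked spots, was 3.67% in the raw signal. With the marked spots kept, as in the coefficients per array given above, the median in the processed signal was 6.50%. The count of 948 circRNA probes with every CNV value above every control was 588 with no scaling, 4462 within slide row 1 and 1357 to 2840 with 1 array left out, 2840 being without control 1, 2316 without CNV 1 and 1455 without control 3. The count of 4 mRNA probes was 18 within slide row 1 and 5 to 21 with 1 array left out, being 21 without control 1, 11 without CNV 1 and 7 without CNV 3. Fewer arrays make such a separation easier to reach. Other causes were not tested. The authors' table does not list the probe, so that alternative was not run.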
